A study of Mus musculus with 32 samples.

Results

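The complement system of mouse liver was described through a list of 33 genes that encode its classical, lectin, alternative and terminal pathway proteins, their regulators and their receptors. The symbols were matched to the Ensembl identifiers of the count table, which holds 52636 genes, and all 33 members were found. All 33 were also among the 15599 genes with enough counts to test. From textbook knowledge, 21 members were classed as made by hepatocytes and 7 as made by macrophages and other myeloid cells (C1qa, C1qb, C1qc, Fcna, Cfp, C3ar1 and C5ar1). The other 5 (C7, Cfd, Cd55, Cd59a and Cr1l) come from other or many cells. The classes are a division of the list and were not measured here.

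Polyadenylated liver RNA of 32 mice was sequenced in 8 groups of 4 animals. Wild-type mice and mice lacking the thyroid hormone receptor beta gene (Thrb, "knockout" below) all ate a low-iodine diet with propylthiouracil (PTU/LID), which blocks the making of thyroid hormone, so every group was hypothyroid before any hormone was given. The mice received the liver toxin carbon tetrachloride (CCl4, 0.4 µl/g, 9 injections over 4 weeks) or oil. Per the protocol, samples were taken 24 hours after the last injection. In the last week the drinking water held 1 µg/ml of the active thyroid hormone triiodothyronine (T3), or the mice were in the PBS groups without it. The groups were thus wild type or knockout, on PBS or T3, with oil or CCl4. The labels used here give no age, sex or strain, and the knockout is of the whole mouse as far as they say. Every comparison below is between animals, with 4 per group.

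Complement is a set of plasma proteins that cut and bind one another in a cascade. C1q, the mannose-binding lectins and the ficolins recognise surfaces, their partner proteases cut C4 and C2, the resulting convertases cut C3, and C5 to C9 build the membrane attack complex. Hepatocytes make most of the circulating proteins, while resident liver macrophages (Kupffer cells) are a main source of C1q.

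Promoter sequence is shown for 6 members, to give the letters next to the start sites of genes on which the results turn. C8a and C8b had the largest falls with T3 in wild-type oil livers, and C1qb, C1qc, Fcna and Cfp are macrophage-made members that rose with T3. RefSeq promoter entries (build GRCm38.p6) were found for 25 of the 33 members. C1qa was not among them. Each run below is the 250 bases before the RefSeq start, 5′ to 3′ on the gene's own strand, with matches to the searched motifs in capitals. C8a lies at chr4:104876399-104876648 on the minus strand and holds 1 match to the STAT motif TTCNNNGAA. C8b lies at chr4:104766067-104766316 on the plus strand and holds 1 match to the C/EBP motif TTNNGNAA and 1 to AGGTCA, the core bound by thyroid hormone and other nuclear receptors. C1qb (chr4:136886201-136886450, minus strand) holds 1 match to GAGGAA, the core bound by the myeloid factor PU.1. C1qc (chr4:136892915-136893164, minus strand) holds 1 GAGGAA, 1 AGGTCA and 1 TTNNGNAA match. Fcna (chr2:25627975-25628224, minus strand) holds 3 GAGGAA matches and 1 TTNNGNAA match. Cfp (chrX:20931556-20931805, minus strand) holds 0 matches to the searched motifs.
C8a: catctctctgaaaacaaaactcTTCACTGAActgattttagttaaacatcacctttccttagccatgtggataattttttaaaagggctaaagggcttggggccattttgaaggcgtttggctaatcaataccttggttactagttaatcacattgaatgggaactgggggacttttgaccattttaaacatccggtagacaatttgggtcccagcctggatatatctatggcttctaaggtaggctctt
C8b: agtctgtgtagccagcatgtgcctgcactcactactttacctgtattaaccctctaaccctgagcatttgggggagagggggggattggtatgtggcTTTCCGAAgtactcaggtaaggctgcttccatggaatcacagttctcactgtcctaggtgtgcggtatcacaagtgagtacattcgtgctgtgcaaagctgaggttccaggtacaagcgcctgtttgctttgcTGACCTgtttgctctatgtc
C1qb: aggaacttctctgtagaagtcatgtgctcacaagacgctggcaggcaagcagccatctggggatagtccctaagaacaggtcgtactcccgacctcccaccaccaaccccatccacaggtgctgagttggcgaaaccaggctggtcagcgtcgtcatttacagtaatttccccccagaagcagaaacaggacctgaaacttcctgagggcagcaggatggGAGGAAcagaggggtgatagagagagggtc
C1qc: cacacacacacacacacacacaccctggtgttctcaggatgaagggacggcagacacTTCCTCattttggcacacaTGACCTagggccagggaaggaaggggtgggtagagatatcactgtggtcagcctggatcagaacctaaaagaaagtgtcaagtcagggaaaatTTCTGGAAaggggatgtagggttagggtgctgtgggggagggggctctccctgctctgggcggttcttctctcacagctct
Fcna: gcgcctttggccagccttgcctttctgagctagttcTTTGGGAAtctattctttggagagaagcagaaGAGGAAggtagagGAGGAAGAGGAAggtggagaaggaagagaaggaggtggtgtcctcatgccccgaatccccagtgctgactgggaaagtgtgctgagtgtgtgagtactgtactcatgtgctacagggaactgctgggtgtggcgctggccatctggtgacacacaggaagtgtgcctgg
Cfp: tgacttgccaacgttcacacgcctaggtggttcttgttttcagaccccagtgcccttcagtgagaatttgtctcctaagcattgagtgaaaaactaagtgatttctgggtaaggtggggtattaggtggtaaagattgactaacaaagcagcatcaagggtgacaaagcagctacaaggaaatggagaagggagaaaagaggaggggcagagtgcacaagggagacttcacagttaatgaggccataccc
Motifs were searched on both strands, and none of the marked matches overlap each other except where 2 GAGGAA runs of Fcna abut. Of all 32817 promoters of the same length, 14.0% held AGGTCA, against 6 of the 25 members (C1qc, C3, C6, C7, C8b and Mbl2). A direct repeat of AGGTCA with 4 bases between was in 0.0152% of promoters and in 0 members. TTCNNNGAA was in 7.01% of promoters and in 3 members. TTNNGNAA was in 36.8% of promoters and in 11 members. GAGGAA was in 23.3% of promoters and in 4 members (C1qb, C1qc, Cd59a and Fcna). The longer motif of the hepatocyte factor HNF1 was in 0.00914% of promoters and in 0 members. These are letter matches and not measured sites.

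Library totals ran from 16985162 to 26118055 counts, and at least 99.5% of each lay in the tested genes. Thrb, the deleted gene, was still counted in every knockout library, at 15.9 to 42.6 CPM (counts scaled to the TMM-adjusted library total) against 10.7 to 66.4 in wild type. Within a treatment it was lower in the knockout without overlap in 3 of 4 comparisons, at 30.7 to 42.6 against 50.2 to 66.4 CPM with PBS and oil, 22.7 to 33.7 against 43.2 to 60.6 with T3 and oil, and 15.9 to 24.4 against 32.8 to 44.4 with T3 and CCl4. It was called lower on T3 with oil (-0.70 ± 0.21, adjusted p = 0.0207) and with CCl4 (-1.01 ± 0.21, adjusted p = 0.000966). On PBS it was not called with oil (adjusted p = 0.167) or with CCl4 (-0.23 ± 0.21, adjusted p = 0.6), where the groups overlapped. The table does not show which exons gave the counts. Dio1, a standard T3 target, was at most 1.00 CPM in wild-type PBS livers, 845 to 1186 in wild-type T3 livers and 77.4 to 135 in knockout T3 livers. All 10 hepatocyte markers examined were detected, with Alb at 114983 ± 18731 CPM (SD, n = 4) in wild-type PBS oil livers. Their summed level was 128865 to 179170 CPM there and 56909 to 77431 in wild-type PBS CCl4 livers. The summed level of 10 Kupffer cell markers was 218 to 349 CPM in wild-type PBS oil livers and 993 to 1614 in wild-type T3 oil livers. Knockout PBS CCl4 replicate 3 held the fat cell genes Adipoq at 5.10 CPM and Cfd at 15.4 CPM. Wild-type PBS CCl4 replicate 2 held the most neutrophil marker RNA, at a summed 322 CPM against 25.8 to 60.6 in the other 3 libraries of its group. Counts of members are given with and without these libraries where they change.

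Per kilobase of exon, C3 was the most abundant member in wild-type PBS oil livers, at 1741 ± 93.0 CPM per kb (SD, n = 4). It was followed by vitronectin (Vtn, an inhibitor of the terminal complex, 843 ± 70.3 CPM per kb). Mannose-binding lectin 2 (Mbl2) was at 394 ± 50.6, complement factor I (Cfi, which cuts C3b and C4b) at 355 ± 16.4 and clusterin (Clu) at 301 ± 65.7 CPM per kb. Mbl2, Cfi and Clu lay within about 1 SD of their neighbours in this order, whereas C3 and Vtn stood apart from each other and from the rest. The C1q chains were at 26.3 ± 6.97 (C1qa), 24.4 ± 7.29 (C1qb) and 13.9 ± 4.33 (C1qc) CPM per kb. The anaphylatoxin receptors C3ar1 and C5ar1 and the terminal protein gene C7 were lowest, at 0.457, 0.328 and 0.116 CPM per kb. C3 alone made up between 34.5% and 64.3% of the members' summed CPM in the 32 libraries.

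**Figure D1:**
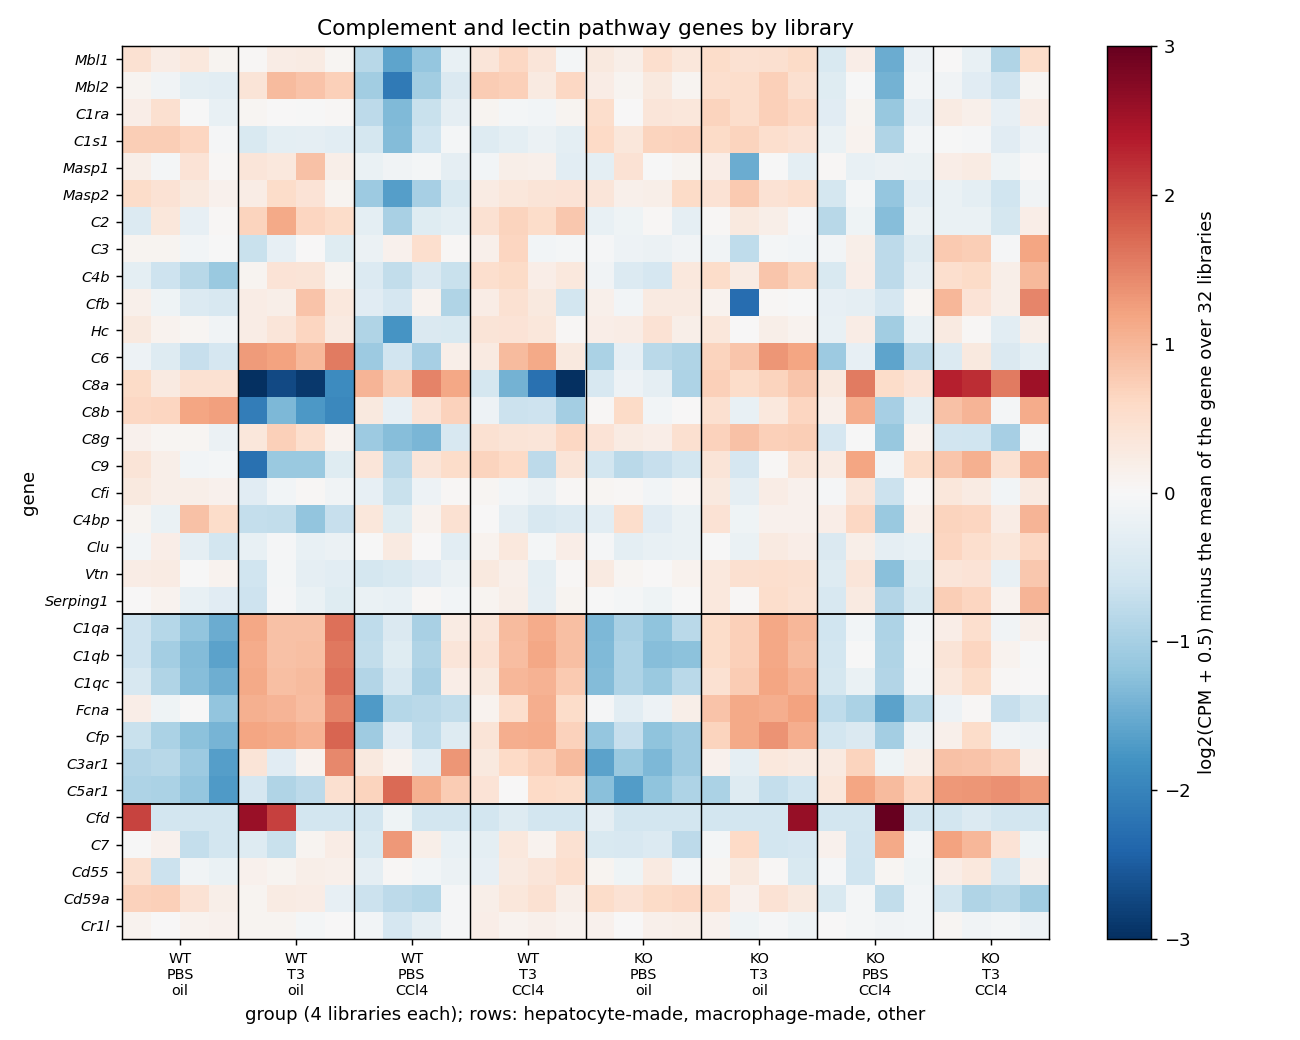
Level of each of the 33 members (one per line) in each of the 32 libraries (columns, grouped by genotype, treatment and injection), as log2(CPM + 0.5) minus the gene's mean over all libraries. The C1q chains, Fcna and Cfp are higher in each T3 oil library than in any PBS oil library of the same genotype, C8a and C8b have their lowest group means in wild-type T3 oil livers, and Cfd is high in few libraries.

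T3 raised the macrophage-made members in oil-injected livers of both genotypes. In wild-type oil livers 11 of 33 members rose and 6 fell (adjusted p under 0.05, edgeR quasi-likelihood test, here "called"), where 35.3% of all tested genes were called, 19% higher and 16.2% lower. All 7 macrophage-made members rose, with a median log2 fold change of 2.19, against -0.02 over all genes. Of the 21 hepatocyte-made members 4 rose (C6, C4b, C2 and Mbl2) and 5 fell (C8a, C8b, C9, C4bp and C1s1). In knockout oil livers 9 members rose and 0 fell, where 18.8% of all genes were called (10.6% higher, 8.13% lower). They were 6 of the 7 macrophage-made members, with a median of 1.93 over the 7, together with C6, C4b and C8a. In these bulk samples, more or fewer cells of a type and more or less RNA per cell cannot be told apart.

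In CCl4-injured livers T3 acted on many members in wild-type mice. In wild-type CCl4 livers 16 members rose and 3 fell, where 41.7% of all genes were called (20% higher, 21.7% lower). Of the hepatocyte-made members 9 rose and 2 fell, and of the macrophage-made members 5 rose and 1 fell. Without wild-type PBS CCl4 replicate 2, 16 members rose and 2 fell. In knockout CCl4 livers 5 members rose and 0 fell, where 2.54% of all genes were called (1.77% higher, 0.769% lower). These were the hepatocyte-made Serping1, Clu, C4b, C3 and C8a. Without knockout PBS CCl4 replicate 3, 2 members rose and 1 fell. A fit of the 2 compared groups alone called 0 members there, and DESeq2 called 7.

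CCl4 lowered part of the hepatocyte-made list and raised part of the myeloid list in PBS livers. In wild-type PBS livers 4 members rose and 11 fell, where 46.2% of all genes were called (24.6% higher, 21.6% lower). The 15 of 33 members called were thus near the share of all genes. Of the 21 hepatocyte-made members 8 fell and 0 rose, and the class median log2 fold change was -0.42 against 0.04 over all genes. Of the macrophage-made members 4 rose (C5ar1, C3ar1, C1qb and C1qa) and 1 fell (Fcna). Without wild-type PBS CCl4 replicate 2, 3 members rose and 10 fell. In knockout PBS livers 8 members rose and 6 fell, where 31.1% of all genes were called (17.8% higher, 13.4% lower). Hepatocyte-made members went both ways there: C8a and C9 rose, and C1ra, C1s1, C8g and Masp2 fell. Of the macrophage-made members the C1q chains, C3ar1 and C5ar1 rose and Fcna fell. The C1qc call was lost in 7 of 8 fits that left out 1 library (adjusted p up to 0.143). In such fits the C1qa call was lost in 4 (adjusted p up to 0.102) and the C8g call in 3 (adjusted p up to 0.0984). Without knockout PBS CCl4 replicate 3, 8 rose and 4 fell, and the genes called dropped from 4854 to 2992. In wild-type T3 livers CCl4 raised 2 members (C9 and C8b) and lowered 0, where 3.4% of all genes were called (1.67% higher, 1.74% lower). In knockout T3 livers 5 rose and 11 fell, where 39.6% of all genes were called (19.7% higher, 19.8% lower).

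The split between higher and lower depended on how libraries were scaled. With library totals in place of TMM factors the median log2 fold change of all genes moved to 0.43 for CCl4 in wild-type PBS livers and to 0.35 in knockout PBS livers. It was -0.42 for T3 in wild-type CCl4 livers and -0.53 for the T3 by CCl4 interaction in wild type. Under that scaling the members split 11 higher and 7 lower for CCl4 in wild-type PBS livers, 8 and 8 for CCl4 in knockout T3 livers, and 4 and 1 for T3 in knockout CCl4 livers. They split 8 and 8 for knockout in T3 CCl4 livers, 7 and 4 for T3 by genotype with CCl4 and 6 and 6 for T3 by CCl4 in wild type. Changes below are on the TMM scale, which sets the bulk of genes near 0.

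Knockout without T3 changed 0 members past the threshold. With oil, edgeR called 0 of 33 members between the genotypes on PBS, where 0.538% of all genes were called (0.404% higher, 0.135% lower), and DESeq2 called 0. At an unadjusted p under 0.05, 1 member was higher (C4b) and 3 were lower (C8a, C8b and C9). A fit of the 2 groups alone called 2 members, both lower. With CCl4, edgeR called 0 members and DESeq2 called 1, where 2.25% of all genes were called by edgeR (1.21% higher, 1.04% lower). At an unadjusted p under 0.05, 5 were higher, and without knockout PBS CCl4 replicate 3 edgeR called 4, all higher. On T3 with oil, 8 members were higher and 2 lower in the knockout, where 16.3% of all genes were called (7.14% higher, 9.21% lower). On T3 with CCl4, 5 were higher and 8 lower, where 22.9% were called (10.4% higher, 12.5% lower).

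The T3 effect itself was tested against genotype. With oil, 5 members differed (C8a, C8b, C9, C4bp and C1s1), all with a higher T3 effect in the knockout, where 12.2% of all genes were called (5.58% higher, 6.64% lower). With CCl4, 10 members differed, 5 in each direction, where 22.7% of all genes were called (10.3% higher, 12.4% lower). Without knockout PBS CCl4 replicate 3 these were 4 higher and 10 lower, and without wild-type PBS CCl4 replicate 2 they were 4 and 5. For the CCl4 effect on PBS, 0 members differed between genotypes by edgeR and by DESeq2, where 0.0192% of all genes were called (0% higher, 0.0192% lower), and 2 had an unadjusted p under 0.05 (C9 and Cfd). In wild type, the T3 effect differed between CCl4 and oil at 14 members (10 higher, 4 lower), where 23.9% of all genes were called (10.8% higher, 13.1% lower). Without wild-type PBS CCl4 replicate 2 it differed at 9 (6 higher, 3 lower).

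**Figure D2:**
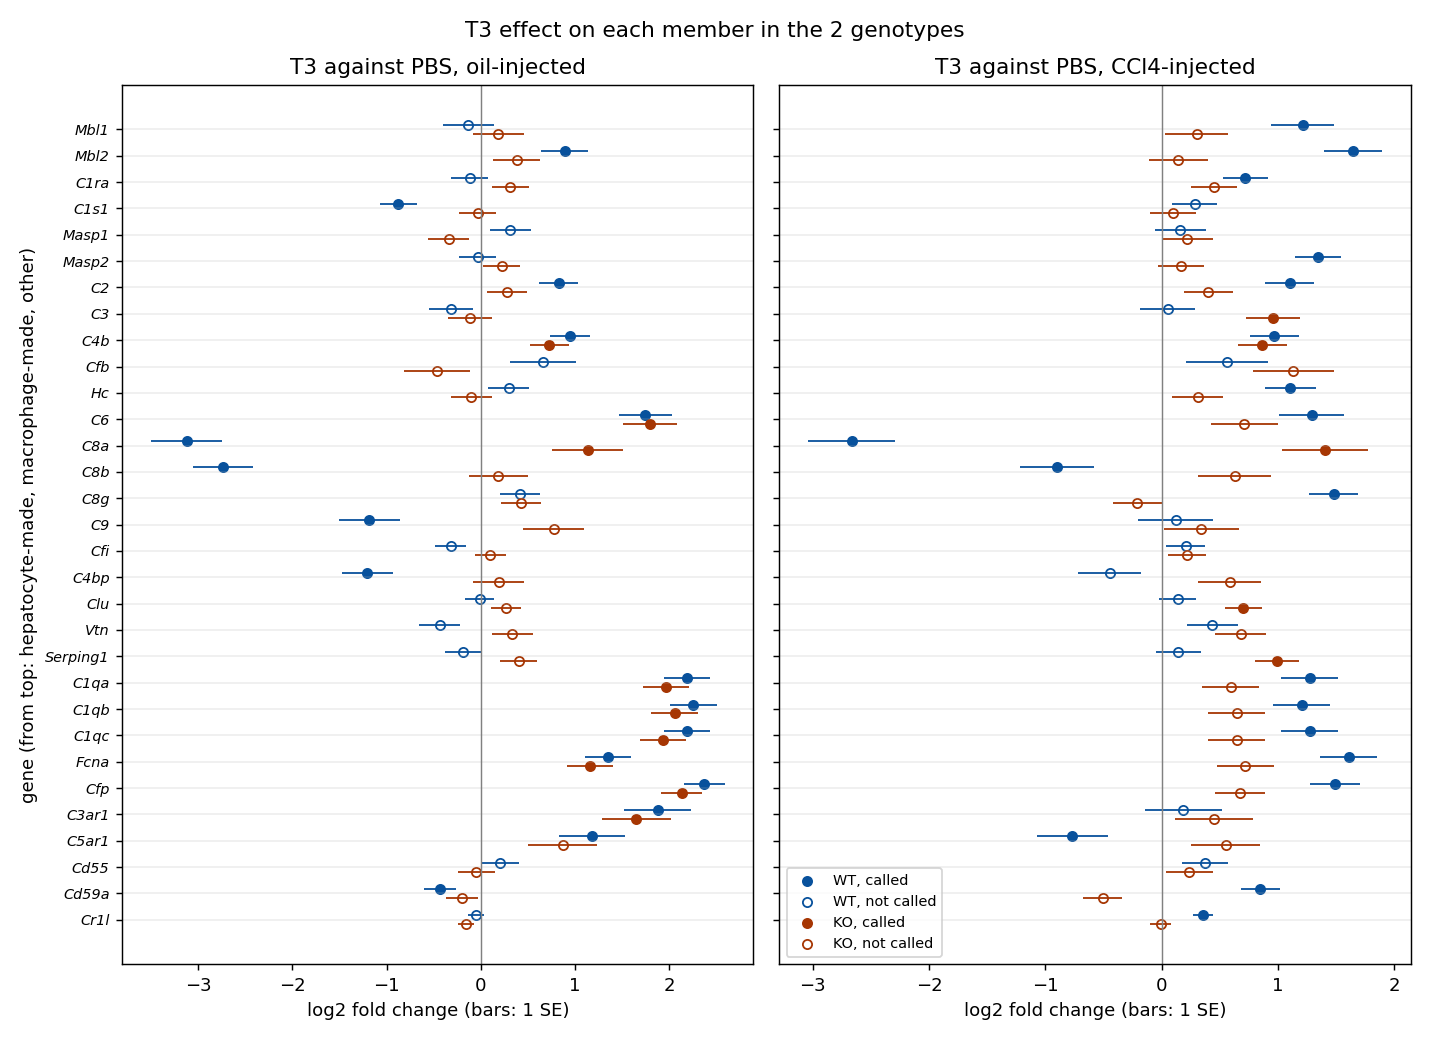
Log2 fold change of T3 against PBS for 31 members (vertical axis) in oil-injected (left) and CCl4-injected (right) livers, wild type and knockout in 2 colours, with bars of 1 SE; filled points were called by edgeR. C8a lies on opposite sides of 0 in the genotypes in both panels, while the macrophage-made members lie right of 0 in both genotypes with oil.

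Recognition began with the C1q chains, whose genes sit side by side on chromosome 4 (C1qb 136880129-136886187, C1qc 136889804-136893065, C1qa 136895917-136898803, GRCm38). The gaps between them are 3.62 and 2.85 kb. C1qb counts in wild-type oil livers were 36.9, 27.9, 22.9 and 18.4 CPM on PBS and 124, 105, 107 and 170.4 on T3. In knockout oil livers they were 22.2, 29.8, 23.2 and 24.02 on PBS and 83.3, 93.6, 127 and 110.2 on T3. Every T3 library was above every PBS library in both genotypes. T3 changed C1qb by a log2 fold change of 2.25 ± 0.25 (SE, adjusted p = 7.28e-08) in wild type and 2.06 ± 0.25 (adjusted p = 1.81e-06) in the knockout. C1qa and C1qc rose by 2.19 each in wild type and by 1.96 and 1.93 in the knockout. For none of the 3 chains did the T3 effect with oil pass the test of a difference between genotypes, with estimates of -0.19 ± 0.35 for C1qb, -0.23 ± 0.35 for C1qa and -0.26 ± 0.35 for C1qc.

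The 3 chains kept nearly fixed proportions. Per kilobase, the ratio of C1qa to C1qb lay between 0.874 and 1.35 and that of C1qc to C1qb between 0.469 and 0.717 over the 32 libraries. The libraries' summed C1q level spanned a wider range of group means, from 76.9 ± 10.3 CPM in knockout PBS oil to 374 ± 94.6 in wild-type T3 oil (SD, n = 4 each). The 10 Kupffer cell markers moved beside it: 10 of 10 rose with T3 in wild-type oil livers and 9 of 10 in knockout oil livers. Their summed level was 286 to 356 CPM in knockout PBS oil and 772 to 1021 in knockout T3 oil. The C1q sum divided by the Kupffer sum was 0.266 ± 0.0445 in wild-type PBS oil and 0.312 ± 0.0169 in wild-type T3 oil livers, with overlap. In the knockout it was 0.250 ± 0.0334 and 0.353 ± 0.0335, without overlap (highest PBS library 0.298, lowest T3 library 0.308). The part that cell number plays in the C1q rise was not tested.

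In CCl4-injured livers T3 raised all 3 C1q chains in wild type and none was called in the knockout. C1qb was at 33.9, 44.2, 30.3 and 73.3 CPM in wild-type PBS CCl4 livers and at 76.9, 108, 127 and 106 in wild-type T3 CCl4 livers. In knockout CCl4 livers it was at 38.9, 56.2, 29.96 and 54.5 on PBS and at 74.1, 88.6, 61.2 and 56.3 on T3. The T3 groups lay above the PBS groups without overlap in both genotypes, though by little in the knockout. On the log2 scale T3 changed it by 1.20 ± 0.25 (adjusted p = 0.000346) in wild type and 0.64 ± 0.25 (adjusted p = 0.175) in the knockout. The difference between the genotypes was -0.56 ± 0.35 (adjusted p = 0.257). In wild type the T3 effect with CCl4 minus that with oil was -1.05 ± 0.35 (adjusted p = 0.03) for C1qb. That call was lost in 5 of 16 fits that left out 1 library (PBS oil 3 or 4, T3 oil 4, PBS CCl4 4 or T3 CCl4 1), with adjusted p up to 0.0843. For C1qa and C1qc the difference was not called, at -0.92 ± 0.34 (adjusted p = 0.0521) and -0.91 ± 0.35 (adjusted p = 0.054). Of the Kupffer markers 9 of 10 rose in wild type and 4 of 10 in the knockout. CCl4 itself raised C1qb on PBS by 0.78 ± 0.25 (adjusted p = 0.0124) in wild type, which was lost without wild-type PBS oil replicate 4 or PBS CCl4 replicate 4 (adjusted p up to 0.115). A fit of the compared groups alone also lost this call (adjusted p = 0.0708). In the knockout C1qb rose by 0.85 ± 0.25 (adjusted p = 0.012). C1qa rose by 0.60 ± 0.25 in wild type (adjusted p = 0.0472), a call lost without PBS oil replicate 2, 3 or 4 or PBS CCl4 replicate 2 or 4 (adjusted p up to 0.314).

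Ficolin A (Fcna, chromosome 2, 25624666-25628030), a soluble lectin-pathway recognition protein, rose with C1q on T3, and on PBS fell with CCl4 while C1qb rose. Fcna was at 45.7, 35.96, 39.2 and 17.2 CPM in wild-type PBS oil livers, 84.2, 80.5, 75.4 and 112 with T3 and oil, and 11.9, 21.8, 22.5 and 23.5 with PBS and CCl4. Knockout livers held 39.01, 31.8, 35.9 and 44.9 CPM with PBS and oil and 23.2, 20.3, 12.8 and 21.5 with PBS and CCl4. The knockout CCl4 libraries all lay below the oil libraries, whereas the lowest wild-type oil library lay within the wild-type CCl4 range. T3 raised it by 1.35 ± 0.24 in wild-type oil livers (adjusted p = 8.76e-05) and by 1.16 ± 0.24 in knockout oil livers (adjusted p = 0.00135). CCl4 lowered it on PBS by a log2 fold change of -0.79 ± 0.25 in wild type (adjusted p = 0.0104) and -0.96 ± 0.25 in the knockout (adjusted p = 0.00508). The wild-type call was lost without PBS oil replicate 1 (adjusted p = 0.0509). It was also lost with library totals and in a fit of the compared groups alone (adjusted p up to 0.166). On T3, CCl4 changed Fcna by -1.40 ± 0.24 in the knockout (adjusted p = 0.000104) and C1qb by -0.56 ± 0.25 (adjusted p = 0.0701), both downward, and in wild type by -0.54 ± 0.24 and -0.27 ± 0.25, neither called. Per kilobase, Fcna to C1qb was 1.03 ± 0.253 in wild-type PBS oil livers and 0.377 ± 0.152 in wild-type PBS CCl4 livers. In the same comparison 10 of 10 markers of monocyte-derived macrophages rose (summed level 110.0 to 217 CPM with oil, 264 to 491 with CCl4). The summed level of the 10 Kupffer cell markers was 218 to 349 CPM with oil and 253 to 517 with CCl4, with overlap. The share of these cells in the Fcna result was not tested.

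**Figure D3:**
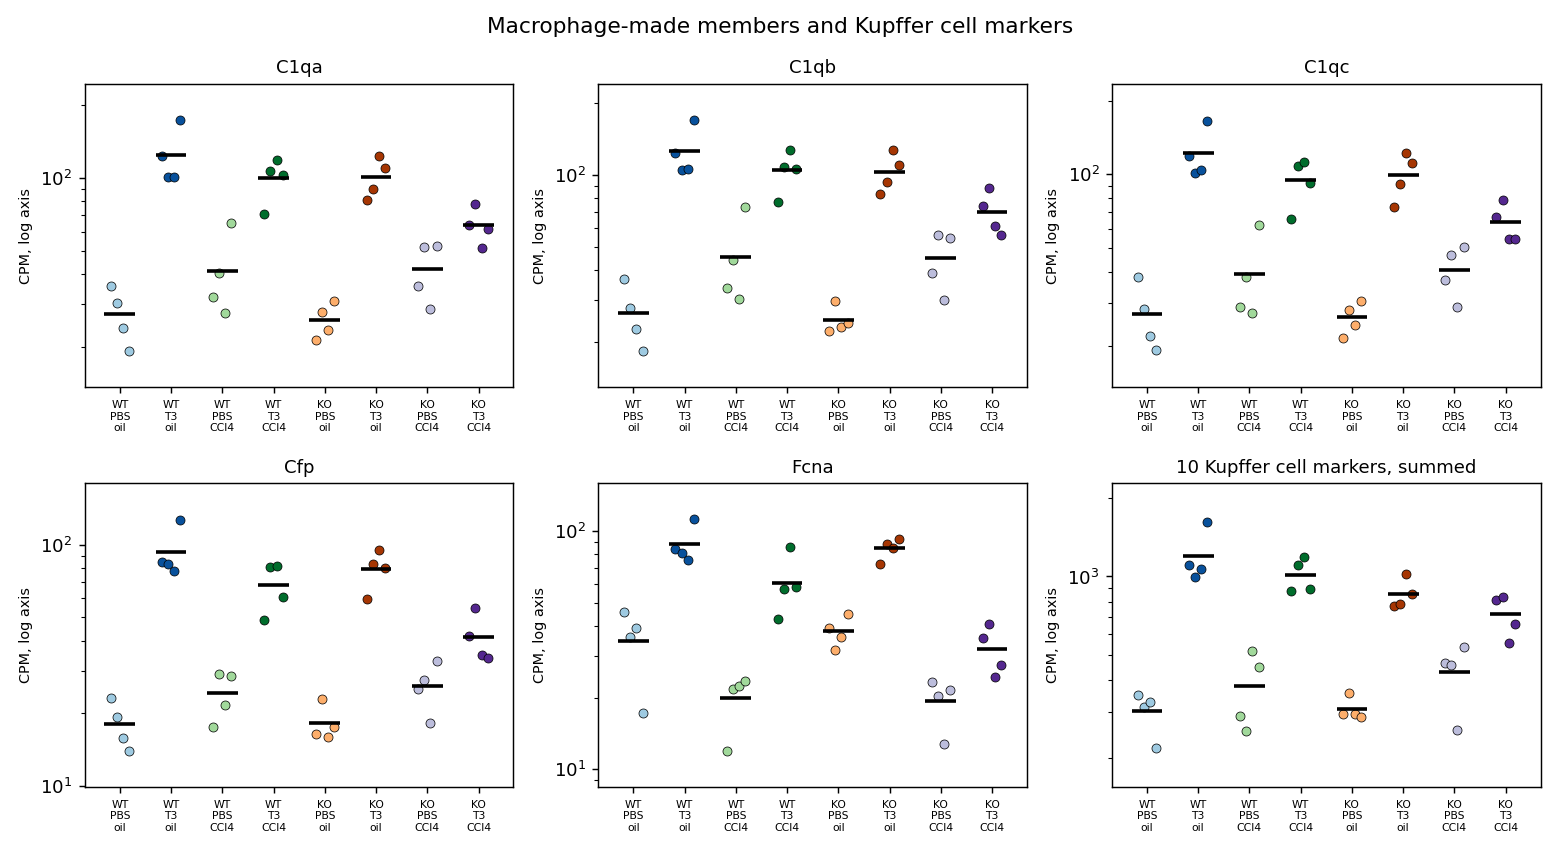
CPM on a log axis in each library (points) for the C1q chains, Cfp, Fcna and the summed level of 10 Kupffer cell markers, by group, with a line at each group mean. The 4 T3 oil libraries lie above the 4 PBS oil libraries in every panel and both genotypes, and Fcna has its lowest group means in the PBS CCl4 groups.

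Properdin (Cfp, X chromosome, 20925454-20931555), which stabilises the alternative-pathway convertase, rose with C1q on T3. With CCl4 on PBS Cfp was called in neither genotype, whereas C1qb was called higher. It was at 23.2, 19.2, 15.8 and 13.97 CPM in wild-type PBS oil livers and at 85.2, 83.3, 77.99 and 127 with T3. Every T3 library was above every PBS library, and the log2 fold change was 2.37 ± 0.22 (adjusted p = 2.79e-09). In the knockout it was 2.13 ± 0.22 (adjusted p = 1.58e-07). With CCl4 it was 1.49 ± 0.21 in wild type (adjusted p = 4.93e-06), and for knockout against wild type on T3 it was -0.72 ± 0.21 (adjusted p = 0.0155), a call lost without wild-type T3 CCl4 replicate 2 or 3 or knockout T3 CCl4 replicate 3 or 4 (adjusted p up to 0.0601). Cfp to C1qb per kilobase lay between 0.244 and 0.555 in all libraries.

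C6, a terminal-pathway protein classed here as hepatocyte-made, rose with T3 in oil livers as most macrophage-made members did. With CCl4 on PBS it was not called. Among the macrophage-made members C1qb, C3ar1 and C5ar1 rose there, while Cfp was not called and Fcna fell. The cells that made C6 RNA were not measured, and the hepatocyte-made counts above include it. C6 (chromosome 15, 4727175-4814967) was at 10.9, 9.17, 7.24 and 8.32 CPM in wild-type PBS oil livers and at 30.1, 28.4, 24.4 and 36.4 with T3. In the knockout it was at 6.02, 10.2, 6.69 and 6.21 on PBS and at 19.6, 21.96, 31.2 and 28.1 on T3. The groups did not overlap in either genotype. T3 raised C6 by a log2 fold change of 1.75 ± 0.28 (adjusted p = 1.94e-05) in wild type and 1.80 ± 0.28 (adjusted p = 5.36e-05) in the knockout. C6 to C1qb per kilobase was 0.107 ± 0.0218 in wild-type PBS oil livers and 0.0732 ± 0.00750 in wild-type T3 oil livers. With CCl4 on PBS, C6 changed by -0.11 ± 0.29 in wild type (adjusted p = 0.784) and -0.16 ± 0.29 in the knockout (adjusted p = 0.693). The ratio to C1qb was then 0.0552 ± 0.00438 in wild type and 0.0435 ± 0.00810 in the knockout, against 0.0887 ± 0.0112 in knockout PBS oil livers. On T3, CCl4 lowered C6 in the knockout by a log2 fold change of -1.25 ± 0.28 (adjusted p = 0.00112).

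The receptors for the C3a and C5a fragments, C3ar1 and C5ar1, are carried by myeloid cells and were low throughout. C5ar1 (chromosome 7, 16246743-16259540) was at 1.07, 1.04, 0.842 and 0.419 CPM in wild-type PBS oil livers and at 4.25, 9.12, 5.72 and 4.53 with CCl4. Knockout values were 0.753, 0.432, 0.792 and 1.07 CPM with oil and 3.297, 6.31, 5.28 and 4.16 with CCl4. The injured and uninjured groups did not overlap in either genotype. CCl4 raised it on PBS by 2.80 ± 0.34 (adjusted p = 7.68e-07) in wild type and by 2.63 ± 0.35 (adjusted p = 5.5e-06) in the knockout. C3ar1 rose by 1.79 ± 0.35 (adjusted p = 0.000241) and by 1.81 ± 0.36 (adjusted p = 0.000668). Beside them 6 of 6 tested neutrophil markers rose in wild type (summed level 6.19 to 17.5 CPM with oil, 25.8 to 322 with CCl4, S100a8 at 33.9 ± 47.4 CPM against 2.59 ± 1.04) and 1 of 6 in the knockout. Wild-type PBS CCl4 replicate 2 gave the 322 CPM, with S100a8 at 104.7 CPM against 5.66 to 16.2 in the other 3, and also the highest C5ar1. The wild-type rises stayed called in all 8 fits that left out 1 library, this one included, at no less than 2.52 for C5ar1 and 1.32 for C3ar1 (adjusted p up to 1.14e-05 and 0.00173). The neutrophil gene Ly6g was at 0 in all 4 wild-type PBS oil libraries. Their part in the receptor rise was not tested.

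T3 moved C5ar1 one way with oil and the other way with CCl4 in wild type. It rose by 1.18 ± 0.35 with oil (adjusted p = 0.00912), a call lost without T3 oil replicate 4 (adjusted p = 0.13), and fell by 0.77 with CCl4, and the CCl4 call was lost in 6 of 8 fits that left out 1 library (adjusted p up to 0.219; without any one of PBS CCl4 replicates 2 and 3 or T3 CCl4 replicates 1 to 4). The difference between these effects was -1.95 ± 0.46 (adjusted p = 0.00416) for C5ar1 and -1.69 ± 0.49 (adjusted p = 0.0138) for C3ar1. The C3ar1 call was lost without wild-type T3 oil replicate 4 (adjusted p = 0.0613). In knockout T3 CCl4 livers C5ar1 was at 6.88, 7.02, 7.23 and 6.704 CPM, a narrow range, against 3.45, 2.503, 3.995 and 3.87 in wild-type T3 CCl4 livers. The log2 fold change between them was 1.01 ± 0.30 (adjusted p = 0.0174), a call lost without wild-type T3 CCl4 replicate 2 (adjusted p = 0.0643).

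C8, a terminal-pathway protein of 3 chains, held the largest called changes of any member with T3 in wild-type oil livers. The alpha and beta chains come from C8a (chromosome 4, 104815679-104876398) and C8b (104766317-104804548), neighbours 11.1 kb apart, and the gamma chain from C8g on chromosome 2. C8a was at 180.3, 146, 167 and 166 CPM in wild-type PBS oil livers and at 8.64, 18.2, 16.02 and 32.7 with T3. Knockout values were 86.6, 109, 100.4 and 63.6 CPM with PBS and 199.5, 179, 192 and 218 with T3. The genotypes moved in opposite directions without overlap. C8a fell by 3.12 on the log2 scale in wild type (SE 0.38, adjusted p = 6.22e-07) and rose by 1.14 ± 0.37 in the knockout (adjusted p = 0.0348). The knockout call was lost in 7 of 8 fits that left out 1 library, all but the one without PBS oil replicate 2 (adjusted p up to 0.102). The difference between these effects was 4.26 ± 0.53 (adjusted p = 4.54e-06).

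With CCl4 the same opposition was seen. C8a was at 247, 201, 342 and 274 CPM in wild-type PBS CCl4 livers and at 84.3, 44.9, 25.3 and 13.3 with T3, all T3 libraries being lower. In the knockout it was at 148, 361, 178 and 163 with PBS and at 609, 567, 359 and 711 with T3, where the groups overlapped by 1 library each. The log2 fold change was -2.66 ± 0.38 (adjusted p = 6.25e-06) in wild type and 1.40 ± 0.37 (adjusted p = 0.0426) in the knockout. The knockout call was lost in 6 of 8 fits that left out 1 library, with adjusted p up to 0.141 (PBS CCl4 replicate 1, 3 or 4 or T3 CCl4 replicate 1, 2 or 4). The difference between genotypes was 4.07 ± 0.53 (adjusted p = 6.37e-06). CCl4 itself raised C8a in the knockout by 1.24 ± 0.37 on PBS (adjusted p = 0.0152) and by 1.51 ± 0.37 on T3 (adjusted p = 0.0028). The PBS call was lost without knockout PBS CCl4 replicate 2 or PBS oil replicate 4 (adjusted p up to 0.0918). Knockout T3 CCl4 livers held 562 ± 148 CPM and wild-type T3 oil livers 18.9 ± 10.1 (SD, n = 4 each), a 29.7-fold range of group means.

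C8b fell with T3 in wild type and did not pass the test in the knockout. It was at 63.7, 65.5, 94.6 and 97.8 CPM in wild-type PBS oil livers and at 9.45, 16.1, 12.2 and 10.5 with T3. In the knockout it was at 42.3, 62.3, 39.1 and 41.8 with PBS and at 58.4, 35.5, 51.5 and 65.5 with T3. The wild-type groups did not overlap and the knockout groups did. T3 changed C8b by a log2 fold change of -2.74 ± 0.32 (adjusted p = 2.23e-07) in wild type and 0.19 ± 0.31 (adjusted p = 0.739) in the knockout, and the difference was 2.93 ± 0.45 (adjusted p = 5.99e-05). With CCl4 it was -0.90 ± 0.31 in wild type (adjusted p = 0.0236), which was lost without T3 CCl4 replicate 2, 3 or 4 or PBS CCl4 replicate 4 (adjusted p up to 0.0838). The genotype difference with CCl4 was 1.53 ± 0.44 (adjusted p = 0.0137).

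C8g (chromosome 2, 25498651-25501719) did not follow its partner chains. In wild type it was at 262, 251, 251 and 214 CPM with PBS and oil, and at 307, 393, 345 and 259 with T3 and oil. With CCl4 it was at 113, 99.3, 92.9 and 174 on PBS and at 330.2, 318, 312 and 372 on T3. In the knockout with CCl4 it was at 170.1, 240.5, 109.5 and 261 on PBS and at 163, 160.1, 121 and 232 on T3. The wild-type T3 CCl4 libraries were all above the PBS CCl4 libraries, and the knockout groups overlapped. The log2 fold change with CCl4 was 1.48 ± 0.21 (adjusted p = 4.26e-06) in wild type and -0.21 ± 0.21 (adjusted p = 0.694) in the knockout, with a difference of -1.69 ± 0.30 (adjusted p = 0.000198). Per kilobase, C8a to C8g lay at 0.0253 ± 0.0180 in wild-type T3 oil livers and at 1.37 ± 0.153 in knockout T3 CCl4 livers.

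**Figure D4:**
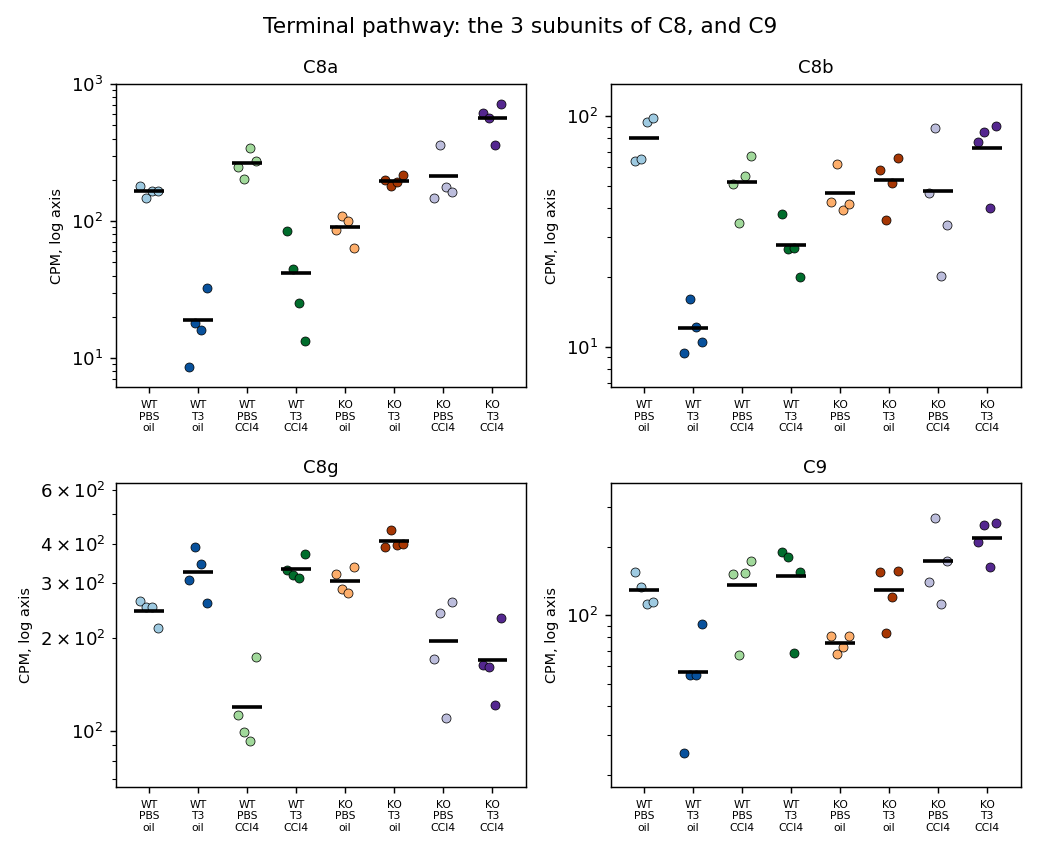
CPM on a log axis in each library (points) for C8a, C8b, C8g and C9 by group, with a line at each group mean. The wild-type T3 oil group has the lowest mean for C8a (libraries 8.64 to 32.7 CPM) and C8b (9.45 to 16.1 CPM), while C8g has its lowest mean in wild-type PBS CCl4 livers.

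C9, which polymerises into the membrane pore, moved like C8a and C8b with oil. It was at 155, 133, 113 and 114 CPM in wild-type PBS oil livers and at 24.9, 54.7, 54.8 and 91.97 with T3. Knockout livers held 81.1, 67.6, 72.8 and 81.00 CPM with PBS and 156, 83.5, 121 and 156 with T3. Neither pair of groups overlapped. T3 changed C9 by a log2 fold change of -1.19 ± 0.32 (adjusted p = 0.00552) in wild type and 0.77 ± 0.32 (adjusted p = 0.0982) in the knockout, with a difference of 1.96 ± 0.46 (adjusted p = 0.00522). With CCl4 the T3 effect was 0.12 ± 0.32 in wild type and 0.34 ± 0.32 in the knockout, and neither was called. CCl4 raised C9 in knockout PBS livers by 1.20 ± 0.32 (adjusted p = 0.00774). In wild-type T3 livers it raised C9 by 1.39 ± 0.32 (adjusted p = 0.0126), lost without T3 oil replicate 1 or T3 CCl4 replicate 1 or 2 (adjusted p up to 0.0607). It also raised C8b there, by 1.21 ± 0.32 (adjusted p = 0.0323), lost without T3 oil replicate 1, 3 or 4 or T3 CCl4 replicate 1, 2 or 3 (adjusted p up to 0.138).

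Without T3, knockout oil livers had lower C8a, C8b and C9 than wild-type oil livers in every library. The log2 fold changes of -0.88 ± 0.37, -0.80 ± 0.31 and -0.77 ± 0.32 had adjusted p-values of 0.519, 0.435 and 0.505, so none was called. Cfi was also lower without overlap in this comparison, while C8g and Mbl2 were higher without overlap. The share of all genes without overlap was not counted, so whether the members exceed it is not known. C5, encoded by Hc, is cut to start the terminal pathway and was at 823, 727, 701 and 625 CPM in wild-type PBS oil livers and at 363, 198, 499 and 491 with CCl4. With T3 and CCl4 it was at 884, 899, 853 and 696. The PBS CCl4 group lay below both others without overlap, with a log2 fold change of -0.89 for CCl4 and 1.10 ± 0.22 for T3 in the injured livers. C7 stayed at or under 1.86 CPM in every library and was called in 0 of the 16 comparisons.

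Mbl1, Mbl2 and Masp2 fell with CCl4 in wild-type PBS livers and rose with T3 in injured wild-type livers. With oil T3 raised Mbl2, while Mbl1 (-0.13 ± 0.27, adjusted p = 0.747) and Masp2 (-0.03 ± 0.20, adjusted p = 0.922) were not called. Mbl2 (chromosome 19, 30232942-30239687) was at 501, 444, 387 and 385 CPM with PBS and oil and at 232, 109, 233 and 351 with PBS and CCl4. With T3 it was at 625, 926, 859 and 776 with oil and at 806, 776, 571 and 733 with CCl4. The PBS CCl4 libraries were the lowest and the T3 groups the highest, without overlap with PBS. CCl4 changed Mbl2 by -0.89 on PBS, and T3 raised it by 0.89 ± 0.25 with oil (adjusted p = 0.00649) and by 1.64 ± 0.25 with CCl4 (adjusted p = 1.15e-05). In the knockout with CCl4 it was at 369, 473, 177 and 451 on PBS and at 443, 375, 311 and 495 on T3. The T3 effect differed between genotypes there by -1.50 (adjusted p = 0.00304). Mbl1, the second mouse lectin of this kind, fell by 1.15 with CCl4 on PBS in wild type (SE 0.27, adjusted p = 0.00133) and rose by 1.21 ± 0.27 with T3 in the injured livers (adjusted p = 0.000867).

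MASP-2, the lectin-pathway protease from Masp2 (chromosome 4, 148602554-148615499), was at 349, 324, 294 and 261 CPM in wild-type PBS oil livers and at 112, 75.7, 120.3 and 174 with CCl4. With T3 and CCl4 it was at 287, 302, 316 and 319.8, inside the range of the oil group. The log2 fold change was -1.35 ± 0.20 for CCl4 on PBS (adjusted p = 1.01e-05) and 1.34 ± 0.20 for T3 in injured livers (adjusted p = 6.19e-06). In the knockout with CCl4 it was at 165, 230.4, 107 and 194 on PBS and at 208, 195, 159 and 222 on T3, and the genotypes' T3 effects differed by -1.17 (adjusted p = 0.00312). Of its exon bases, 54.9% also belong to another gene, Tardbp on the opposite strand, which holds 105645 counts, and the strand setting of the counting was not found in these sources. Masp1, whose product also cuts lectin-pathway substrates, was called in 1 of the 16 comparisons, knockout against wild type on T3 with oil, at -0.74 ± 0.22 (adjusted p = 0.0203). That call was lost on leaving out T3 oil replicate 3 of wild type or replicate 2 of the knockout (adjusted p up to 0.108).

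The classical-pathway proteases C1r and C1s, from the neighbours C1ra and C1s1 on chromosome 6 (6.90 kb apart), fell with CCl4 on PBS in both genotypes. C1s1 was at 604, 605, 566 and 357 CPM in wild-type PBS oil livers, 251, 147, 239 and 349 with PBS and CCl4, and 265, 298, 304 and 293 with T3 and oil. In knockout oil livers it was at 555, 464, 583 and 589 with PBS and at 545, 578, 520.1 and 496 with T3. The wild-type T3 oil libraries all lay below the wild-type PBS oil libraries, and the knockout groups overlapped. The T3 effect was -0.88 ± 0.20 (adjusted p = 0.000875) in wild type and -0.03 ± 0.20 (adjusted p = 0.933) in the knockout. Their difference, 0.84 ± 0.28, was called at an adjusted p of 0.045 and lost in 15 of 16 fits that left out 1 library (adjusted p up to 0.109), all but the one without wild-type PBS oil replicate 4. CCl4 changed C1s1 by -1.11 ± 0.20 (adjusted p = 7.9e-05) in wild-type and -0.81 ± 0.20 (adjusted p = 0.00344) in knockout PBS livers. C1ra changed by -0.85 ± 0.20 and -0.67 ± 0.20, the latter lost without knockout PBS CCl4 replicate 3 (adjusted p = 0.0575).

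C3 (chromosome 17, 57203970-57228136), the central protein of all 3 routes, was at 9308, 9357, 8340.4 and 8806 CPM in wild-type PBS oil livers and at 15290.1, 14653, 8604 and 19977 in knockout T3 CCl4 livers. In knockout livers it was at 8225, 5237, 8424 and 8342 with T3 and oil and at 8341, 9957, 5091 and 6748 with PBS and CCl4. The knockout T3 CCl4 group lay above the T3 oil group and overlapped the PBS CCl4 group. CCl4 raised C3 on T3 in the knockout by 0.95 ± 0.23 (adjusted p = 0.00234), and T3 raised it in injured knockout livers by 0.96 ± 0.23 (adjusted p = 0.0242). The second call was lost in 6 of 8 fits that left out 1 library (adjusted p up to 0.123; PBS CCl4 replicate 1, 3 or 4 or T3 CCl4 replicate 1, 2 or 4). None of the 4 wild-type T3 and CCl4 comparisons called C3. Its genotype difference with CCl4, 0.91 ± 0.33 (adjusted p = 0.0473), was lost in 11 of 16 such fits (adjusted p up to 0.134). Each of these fits left out 1 injured library: in the knockout replicate 1, 3 or 4 on PBS or replicate 1, 2 or 4 on T3, and in wild type replicate 2 or 3 on PBS or replicate 1, 3 or 4 on T3.

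C4b encodes the mouse C4 protein and rose with T3 in all 4 settings. Its mean was 573 ± 137 CPM in wild-type PBS oil, 1104 ± 141 in T3 oil, 627 ± 69.3 in PBS CCl4 and 1227 ± 143 in T3 CCl4 livers (SD, n = 4 each). In the knockout the means were 843 ± 228, 1395 ± 235, 760.2 ± 227 and 1384 ± 322. The log2 fold changes were 0.95 ± 0.21 and 0.97 ± 0.21 in wild type with oil and CCl4 (adjusted p = 0.000811 and 0.000597). In the knockout they were 0.73 ± 0.21 and 0.86 ± 0.21 (adjusted p = 0.0156 and 0.0231). The first was lost without PBS oil replicate 2 or 3 or T3 oil replicate 3 (adjusted p up to 0.0814), the second without PBS CCl4 replicate 1, 3 or 4 or T3 CCl4 replicate 2 or 4 (adjusted p up to 0.121). C2, which pairs with C4b in the convertase, rose with T3 in wild type by 0.82 ± 0.21 with oil (adjusted p = 0.00273) and by 1.10 with CCl4. Of C2's exon bases 46.9% are shared with other genes. Cfb, the alternative-pathway counterpart of C2, was at 15.3, 9.996, 8.52 and 21.3 CPM in knockout T3 CCl4 livers and rose there with CCl4 by 1.18, which was lost without knockout T3 CCl4 replicate 4 (adjusted p = 0.0594). Of its exon bases 79.5% are shared with a read-through annotation on the same strand that holds 0 counts. How reads in shared exons were counted is not given in these sources, so C2 and Cfb may be undercounted.

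Of the fluid-phase regulators, C1 inhibitor (Serping1) and clusterin rose in injured knockout livers given T3. Serping1 was at 452, 754, 341 and 457 CPM in knockout PBS CCl4 livers and at 1044, 987, 676 and 1277 with T3. The groups overlapped by 1 library each, and the log2 fold change was 0.99 ± 0.19 (adjusted p = 0.00431). Clu was at 842, 1303, 956 and 978 CPM with PBS and at 1794, 1630.1, 1448 and 1755 with T3, with no overlap. Its log2 fold change was 0.70 ± 0.16 (adjusted p = 0.0158), lost without PBS CCl4 replicate 1 or T3 CCl4 replicate 4 (adjusted p up to 0.0703). Between genotypes on T3, Serping1 was higher in the knockout by 0.64 ± 0.19 with oil (adjusted p = 0.0221) and by 0.63 ± 0.19 with CCl4 (adjusted p = 0.018). The oil call was lost on leaving out T3 oil replicate 1 or 4 of wild type or 3 or 4 of the knockout (adjusted p up to 0.0933), the CCl4 call without wild-type T3 CCl4 replicate 3 or knockout T3 CCl4 replicate 4 (adjusted p up to 0.0905). C4bp, which holds back the classical convertase, fell by 1.21 with T3 in wild-type oil livers (SE 0.27, adjusted p = 0.000952). There it went from 439, 358, 757 and 601 CPM to 251, 248, 180.0 and 255, and in the knockout from 329, 593, 325 and 359.9 to 555, 373, 452 and 453. The genotype difference of 1.40 ± 0.38 (adjusted p = 0.0161) was lost without wild-type PBS oil replicate 3 (adjusted p = 0.0506).

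Vitronectin was called in 2 of the 16 comparisons and factor I in 1. Vtn was at 1030.4, 1497, 1288 and 1239 CPM in wild-type T3 oil livers and at 1942, 2151, 2209.9 and 2159.5 in knockout T3 oil livers, with no overlap. The genotype difference was 0.74 ± 0.22 (adjusted p = 0.0195), lost without wild-type T3 oil replicate 1 (adjusted p = 0.0784). Its T3 effect in wild type was higher with CCl4 than with oil by 0.87 ± 0.31 (adjusted p = 0.0409), lost in 11 of 16 fits (adjusted p up to 0.0857), all but those without PBS oil replicate 3 or 4, T3 oil replicate 2, PBS CCl4 replicate 4 or T3 CCl4 replicate 3. Cfi had group means between 584 and 789 CPM. Its 1 call was for CCl4 in wild-type PBS livers, at -0.43 ± 0.16 (adjusted p = 0.0322), lost without PBS oil replicate 1, 2 or 3 or PBS CCl4 replicate 1 or 2 (adjusted p up to 0.145).

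Acute-phase proteins outside complement rose beside C3, Serping1 and Clu with T3 in injured knockout livers. Of 17 such genes, 17 rose with T3 in knockout CCl4 livers and 17 rose with CCl4 in knockout T3 livers, with medians of 1.86 and 2.09. Of all genes, 1.77% and 19.7% were called higher in these comparisons. In the second, C3 and Clu were called higher and Serping1 was not called. The Clu call there was lost in 4 of 8 fits that left out 1 library (adjusted p up to 0.0872). For the first, a fit of the compared groups alone called 86 genes, and the acute-phase genes were not examined in it. In wild-type CCl4 livers 1 acute-phase gene rose and 4 fell with T3, where 20% of all genes were called higher and 21.7% lower. Of 15 other secreted hepatocyte proteins, 11 fell with CCl4 in wild-type PBS livers and 11 rose with T3 in wild-type CCl4 livers, beside the falls and rises of Masp2, C8g and the lectins. Of 10 hepatocyte markers, 8 fell and 8 rose in the same comparisons, where 21.6% of all genes fell and 20% rose. The part of these lists in the members' changes was not tested.

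**Figure D5:**
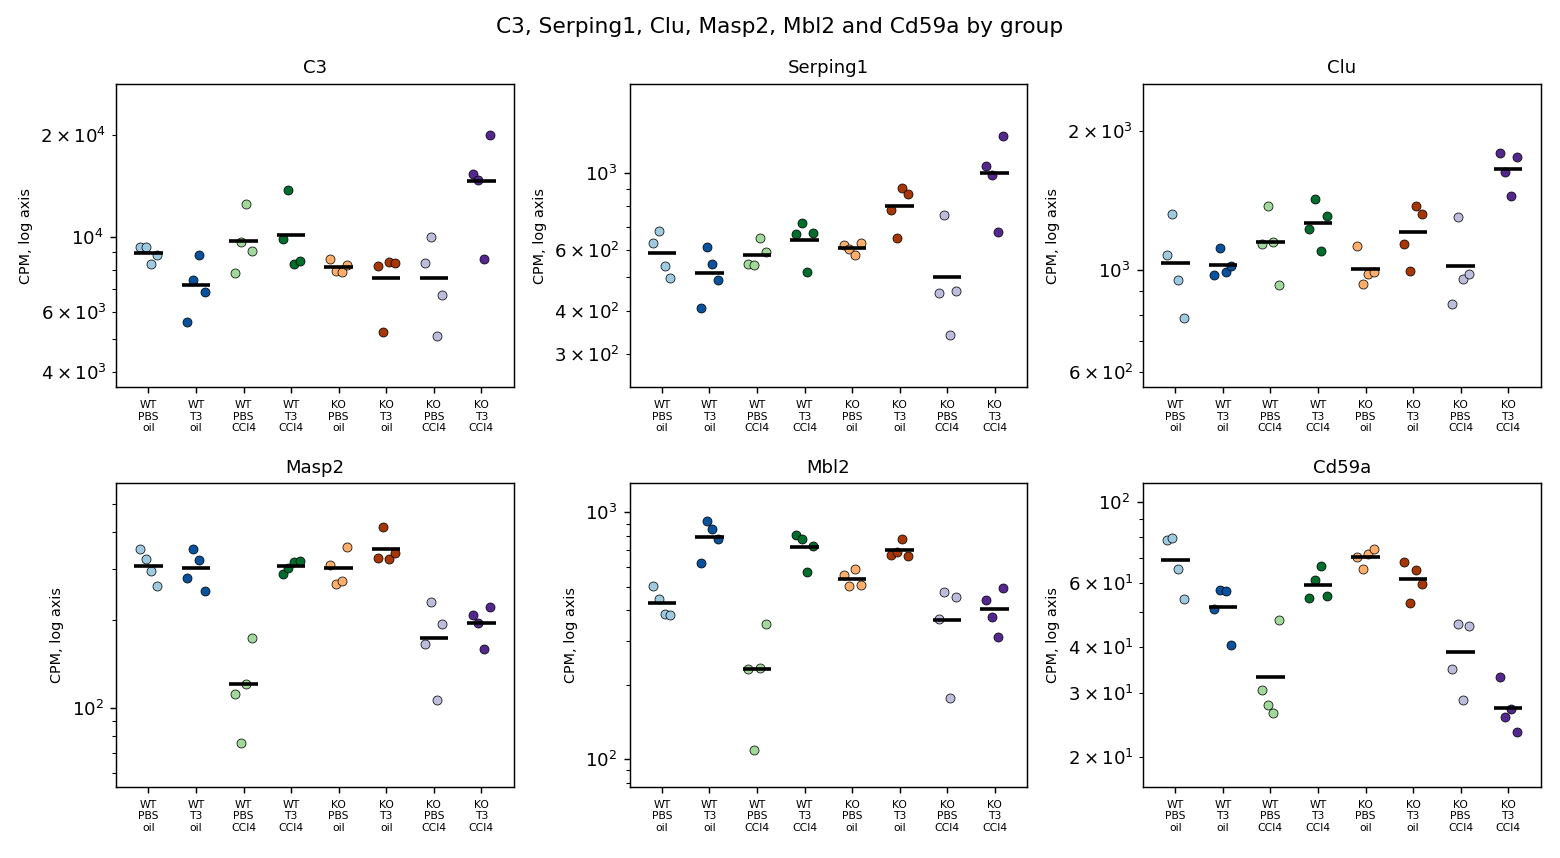
CPM on a log axis in each library (points) by group for C3, Serping1, Clu, Masp2, Mbl2 and Cd59a, with a line at each group mean. Masp2 and Mbl2 have their lowest group mean in wild-type PBS CCl4 livers, and C3 and Serping1 have their highest group mean in knockout T3 CCl4 livers.

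Among the membrane regulators, Cd59a, which blocks C9, fell with CCl4. It was at 78.7, 79.5, 65.4 and 54.2 CPM in wild-type PBS oil livers, 30.5, 27.8, 26.4 and 47.3 with PBS and CCl4, and 54.4, 61.2, 66.6 and 55.02 with T3 and CCl4. In knockout T3 livers it was at 68.5, 52.7, 64.98 and 59.4 with oil and at 33.01, 25.8, 26.97 and 23.3 with CCl4. CCl4 groups on PBS lay below oil without overlap, and with T3 the wild-type CCl4 group overlapped its oil group while the knockout group did not. CCl4 changed it by -1.07 ± 0.17 in wild-type PBS livers (adjusted p = 2.2e-05). T3 raised it by 0.85 ± 0.17 in injured wild-type livers (adjusted p = 0.000249), and the effect differed by genotype by -1.35 (adjusted p = 0.000196). Its fall of 0.43 with T3 in wild-type oil livers (adjusted p = 0.0455) was lost without PBS oil replicate 1, 2 or 3 or T3 oil replicate 1 or 4 (adjusted p up to 0.163). Cr1l, a convertase regulator, kept between 32.8 and 53.3 CPM in all libraries and changed by -0.30 ± 0.09 with CCl4 in wild-type PBS livers (adjusted p = 0.0067). Cd55, another convertase regulator, was called in 0 comparisons, with group means from 18.04 to 24.1 CPM.

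Factor D (Cfd), the alternative-pathway protease made largely by fat cells, was at 0 in most libraries. It reached 15.4 CPM in knockout PBS CCl4 replicate 3, 3.99 in knockout T3 oil replicate 4, and 3.92 and 2.52 in wild-type T3 oil replicates 1 and 2. The fat cell gene Adipoq was at 5.10 CPM in the first of these libraries, 0.399 in the second, and 1.18 and 0.453 in the others. The call of Cfd as higher with CCl4 in knockout PBS livers rested on 1 library, and its log2 fold change turned to -2.45 (adjusted p = 0.736) without knockout PBS CCl4 replicate 3. It was also lost without any one of the 4 knockout PBS oil libraries.

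Of 24 other complement genes on a separate list, 20 were tested. T3 raised 6 and lowered 6 in wild-type oil livers (all genes: 19% higher, 16.2% lower) and raised 6 and lowered 0 in knockout oil livers (10.6% and 8.13%). Vsig4, a Kupffer cell complement receptor, rose by 1.87 ± 0.28 (adjusted p = 9.37e-06) in wild type. With CCl4 on PBS, 5 rose and 11 fell in wild type (24.6% and 21.6% of all genes), and 4 rose and 6 fell in the knockout (17.8% and 13.4%). Itgam, the alpha chain of complement receptor 3, rose by 3.43 ± 0.38 in wild type (adjusted p = 3.51e-07). T3 raised 8 and lowered 3 in wild-type CCl4 livers (20% and 21.7% of all genes).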

How the data were processed

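Per the file headers, the authors deposited 1 table of raw read counts per Ensembl gene, with 1 column for each of the 32 libraries. Per the labels' protocols, libraries of polyadenylated RNA were made with unstranded or stranded TruSeq kits, not assigned to libraries. The submitters' processing notes name FastQC 0.11.5, Trim Galore, cutadapt, STAR 2.7.9a and GRCm38, while the counting tool and its strand setting are not given in the sources used. Groups came from the sample titles.

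Genes were filtered with filterByExpr (minimum count 10, minimum total 15), leaving 15599. One edgeR 4.0.16 quasi-likelihood fit (R 4.3.3, TMM factors, 8 group means) gave log2 fold changes, Wald SEs and Benjamini-Hochberg adjusted p-values over all tested genes for 12 pairwise and 4 interaction comparisons, called at 0.05. A log2 fold change of T3 by genotype is the knockout effect minus the wild-type effect. CPM uses TMM factors, and CPM per kb divides by exon length of the GENCODE annotation of GRCm38. In counts simulated for CCl4 in wild-type PBS livers (15326 genes), 54.5% of changes of 1 on the log2 scale and 84% of changes of 2 were recovered, with 7 false calls. The simulation changed only a small set of genes, whereas 46.2% of genes were called in the real comparison. Its recovery and false calls therefore need not hold there. Alternatives were DESeq2 1.42.0, library totals, no filter, the compared groups alone, replicate numbers as a block, and leaving out each library. No library pair within a group was a duplicate (48 pairs, lowest chi-square per degree of freedom 18.2).

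The members, classes, other gene lists and tests were chosen with earlier results of these data known. For each comparison, up to 6 called members per direction with the smallest p were named, and up to 3 other pathway genes; 1 of the latter is not reported here. The p-values set group differences against the spread between animals within groups. The labels do not say how mice were housed or processed together, so any such difference between groups cannot be told apart from the effects given.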

Additional observations from a re-analysis of the deposited data

Results flagged for a closer look

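In 24 of 264 member and group combinations 1 library stood apart from the other 3 of its group by Dixon's ratio at its 95% critical value, where chance alone flags about 1 in 20. Cfd gave 7 of them: 2.48 CPM in wild-type PBS oil replicate 1, 0.165 in wild-type PBS CCl4 replicate 2, 0.0582 in wild-type T3 CCl4 replicate 2, 0.1004 in knockout PBS oil replicate 1, 15.4 in knockout PBS CCl4 replicate 3, 3.99 in knockout T3 oil replicate 4 and 0.0444 in knockout T3 CCl4 replicate 2. In wild-type PBS libraries, C1s1 was low at 357 CPM (oil replicate 4), C2 low at 9.04 (CCl4 replicate 2) and Fcna low at 11.9 (CCl4 replicate 1). In wild-type T3 oil libraries, C2 was high at 40.4 (replicate 2), Cfb high at 13.8 and C4bp low at 180.0 (both replicate 3), and Cfp high at 127 (replicate 4). In knockout PBS oil libraries, Hc was high at 909 (replicate 3), and C6, C8b and C4bp were high in replicate 2 at 10.2, 62.3 and 593 CPM. In knockout T3 oil replicate 2, C3 was low at 5237, Cfb low at 1.12 and Masp2 high at 416 CPM. In knockout CCl4 libraries, C8a was high at 361 (PBS replicate 2), Masp1 high at 62.9 (PBS replicate 1) and C6 high at 14.9 (T3 replicate 2).

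The T3 effect differed between genotypes by edgeR's interaction test, as knockout minus wild-type log2 fold change. With oil the differences were 4.26 for C8a, 2.93 for C8b, 1.96 for C9, 1.40 for C4bp and 0.84 for C1s1. With CCl4 they were 4.07 for C8a, 1.53 for C8b, 1.32 for C5ar1, 0.91 for C3 and 0.85 for Serping1, and -1.69 for C8g, -1.50 for Mbl2, -1.35 for Cd59a, -1.17 for Masp2 and -0.36 for Cr1l. With oil, C4bp was lost without wild-type PBS oil replicate 3 and C1s1 in 15 of 16 fits, and with CCl4, C3 in 11 of 16. The C5ar1 value was lost on leaving out injured replicate 2 of wild type, on PBS or on T3, or PBS CCl4 replicate 1 or 4 of the knockout (adjusted p up to 0.0774). Serping1 was lost without wild-type T3 CCl4 replicate 3, knockout PBS CCl4 replicate 4 or knockout T3 CCl4 replicate 4 (adjusted p up to 0.0758). Cr1l was lost in 10 of 16 fits (adjusted p up to 0.107), each without 1 injured library: in the knockout replicate 1, 2 or 4 on PBS or 2, 3 or 4 on T3, and in wild type replicate 2 or 3 on PBS or 1 or 3 on T3.

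In wild type the T3 effect differed between CCl4 and oil, as the CCl4 effect minus the oil effect. The differences were 1.84 for C8b, 1.38 for Masp2, 1.34 for Mbl1, 1.31 for C9, 1.28 for Cd59a, 1.16 for C1s1, 1.06 for C8g, 0.87 for Vtn, 0.83 for C1ra and 0.41 for Cr1l. They were -1.95 for C5ar1, -1.69 for C3ar1, -1.05 for C1qb and -0.89 for Cfp. The C1qb value was lost in 5 of 16 fits that left out 1 library (adjusted p up to 0.0843), those without wild-type PBS oil replicate 3 or 4, T3 oil replicate 4, PBS CCl4 replicate 4 or T3 CCl4 replicate 1. The Cfp value was lost in 7 (adjusted p up to 0.102), those and the fits without PBS CCl4 replicate 2 or T3 CCl4 replicate 4. Vtn was lost in 11 (adjusted p up to 0.0857), C9 in 9 (0.0893), C1ra in 6 (0.0760), C3ar1 without T3 oil replicate 4 (0.0613) and Cr1l without PBS CCl4 replicate 2 (0.0510). The C9 call held without PBS oil replicate 3 or 4, T3 oil replicate 4, PBS CCl4 replicate 1, 3 or 4 or T3 CCl4 replicate 3. The C1ra call was lost without PBS oil replicate 1 or 2, T3 oil replicate 4, PBS CCl4 replicate 2 or T3 CCl4 replicate 1 or 4.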

How the results depend on the processing

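Of 160 counts under other settings, 142 stayed within 1.5 times the reported count. Fitting only the groups compared gave 4504 genes for CCl4 in wild-type PBS, 818 genes and 1 member for CCl4 in wild-type T3, 4143 genes for T3 in wild-type CCl4, 86 genes and 0 members for T3 in knockout CCl4, 2 members for knockout in PBS oil, 3 genes for knockout in PBS CCl4, 2300 genes and 6 members for T3 by genotype with CCl4, 0 genes for CCl4 by genotype and 9 members for T3 by CCl4. DESeq2 gave 678 genes for T3 in knockout CCl4, 140 for knockout in PBS oil, and 750 genes and 1 member for knockout in PBS CCl4. No filter gave 205 genes there, and library totals gave 6003 for T3 by CCl4. The cause of these shifts was not tested.

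Leaving out 1 library moved 49 of 320 counts. The members ranged from 0 to 3 for CCl4 in wild-type T3 (genes 328 to 482), 1 to 7 for T3 in knockout CCl4 (165 to 582), 5 to 9 for knockout in T3 oil, 0 to 4 for knockout in PBS CCl4 (70 to 1746), 3 to 5 for T3 by genotype with oil, 6 to 18 with CCl4, and 9 to 16 for T3 by CCl4. Genes ranged from 2992 to 4723 for CCl4 in knockout PBS, 46 to 99 for knockout in PBS oil and 0 to 14 for CCl4 by genotype.

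Of 115 member changes named by rule, 36 lost their call in at least 1 such fit and 24 under another setting. Cfd with CCl4 in knockout PBS ranged from -2.45, without knockout PBS CCl4 replicate 3, to 9.37 over the fits that left out 1 library. The replicate block moved 0 of 32 counts and ended 7 of the 115 calls, which says nothing of effect size because the numbers do not pair the animals: 13 of 112 same-numbered pairs correlated above 0.1 (median -0.0093, range -0.348 to 0.510). Members under 1 CPM, such as C7, rest on few counts.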
